A study of Mus musculus with 14 samples.

Results

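Transcripts of 7 genes that copy, or help to remove, DNA methylation were followed in mouse embryonic stem cells (mESCs). The genes are *Dnmt1*, *Uhrf1*, *Dnmt3l*, *Tet1*, *Tet2*, *Tet3* and *Tdg*, picked by name out of 52459 genes in the count tables, and all 7 were among the 11869 genes with a mean level of at least 1 FPKM at 0 h (counts scaled to the exon length of the gene and to the total of the library). The cells were E14Tg2a mESCs grown in serum with LIF on gelatin, either WT or carrying METTL14 R255K, a CRISPR-Cas9 knock-in that puts lysine in place of an arginine of METTL14 and was picked as a single colony. Poly(A) RNA was sequenced at 0, 4 and 8 h of 5 µg/ml actinomycin D, which blocks transcription, with 1 library per genotype and time. MeRIP-seq, which sequences RNA fragments pulled down by an antibody against N6-methyladenosine (m6A) beside input RNA, gave 1 peak list per genotype from 2 IP and 2 input libraries each. No spread between replicates can be computed from these files, so no test was run, and the 95% intervals below cover counting error only.

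DNMT1 copies methyl marks onto the new DNA strand after replication, and UHRF1 finds the half-methylated sites and brings DNMT1 to them. DNMT3L has no catalytic activity of its own and assists the enzymes that set new marks. The TET enzymes TET1, TET2 and TET3 oxidise 5-methylcytosine, and TDG is a glycosylase that cuts out the most oxidised forms so that repair can restore plain cytosine. mESCs are known for high *Tet1* and *Tet2* levels. METTL14 is the RNA-binding partner of METTL3 in the complex that writes m6A on messenger RNA, and m6A is known to speed the decay of many transcripts.

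The m6A peaks fell mostly on the TET transcripts. *Tet1* carried 4 exonic WT peaks, *Tet2* carried 3, *Tet3* carried 2 and *Dnmt3l* carried 1, whereas *Dnmt1*, *Uhrf1* and *Tdg* carried 0 in either genotype. Of all genes at this level 57.4% carried at least 1 exonic WT peak. Of the 214 genes with at least 15 kb of exon, which include all 3 TET genes, 89.3% did. These long genes carried a median of 2 such peaks, with 42.5% at 3 or more and 27.6% at 4 or more. Over all genes the median was 1, with 9.16% at 3 or more and 3.50% at 4 or more. Among genes at 50 FPKM or more in WT cells at 0 h, where *Dnmt1*, *Uhrf1*, *Dnmt3l* and *Tet1* lie, 44.7% carried at least 1 exonic WT peak. In R255K cells 43.6% of all genes carried at least 1 exonic peak. The letters GGAC are the core of the motif that METTL3 and METTL14 prefer. They also occurred in the genes without a peak, counted over the exons of all isoforms. On the gene's strand the exons of *Dnmt1* held 27 copies (3.66 per kb), those of *Uhrf1* 20 (4.70 per kb) and those of *Tdg* 30 (5.58 per kb). *Tet1* and *Tet2*, by comparison, held 2.79 copies per kb each, *Tet3* 3.77 and *Dnmt3l* 4.35, against a median of 3.86 per kb over all genes.

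All 10 exonic WT peaks held GGAC, and in 8 of them a copy lay within 100 bp of the summit, the point of highest signal. Over all exonic WT peaks whose summit lies on exons of 1 strand, 79.4% had a copy that near. The copies closest to the summit are shown for the strongest peak of each gene, for both peaks whose enrichment was lower in R255K cells, and for the second peak of *Tet3*, which moved the other way from its first. They are read 5′ to 3′ from mm10 on the strand of the gene, with GGAC in capitals. A match of these letters does not show that its A is methylated.
Tet1 peak 1, chr10:62879587-62879606, minus strand, coding: aatatccaGGACgagccggg
Tet1 peak 4, chr10:62812959-62812978, minus strand, coding: caccccgaGGACgataactt
Tet2 peak 3, chr3:133467632-133467651, minus strand, coding: acgtttggGGACagtccctc
Tet3 peak 1, chr6:83455094-83455113, minus strand, 5′UTR: aggagactGGACagtagttt
Tet3 peak 2, chr6:83368499-83368518, minus strand, coding: ctgtggtcGGACagtgaaca
Dnmt3l peak 1, chr10:78050045-78050064, plus strand, 5′UTR: catcccttGGACgcagaccc

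Peaks are numbered from the 5′ end of each gene. The A of GGAC lay 5 and 8 bases downstream of the summit in peaks 2 and 1 of *Tet3*, 12 bases in peak 3 of *Tet2*, 13 bases in *Dnmt3l* and 23 bases in peak 4 of *Tet1*. It lay 102 bases downstream in peak 1 of *Tet1*, just outside the 100 bp window.

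On *Tet1* (minus strand, chr10:62804570-62908996), all 4 summits lay in coding sequence. Peak 1 (chr10:62878384-62879996) lay in exon 2, which is 1982 bp long, peaks 2 and 3 in exon 4 of 2203 bp, and peak 4 (chr10:62812801-62813590) in the last exon, 456 bases before the stop codon. On *Tet2* (minus strand, chr3:133463679-133545139), peak 1 lay in exon 3 of 3206 bp, peak 2 in exon 11 of 364 bp and peak 3 (chr3:133466230-133468236) in the coding part of the last exon. Thus 6 of the 7 summits on *Tet1* and *Tet2* lay in exons of 1982 bp or more, 2 of them in the last exon, and none lay in the 3′UTR.

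*Tet3* (minus strand, chr6:83362373-83459084) had its stronger peak at the other end of the transcript. Peak 1 (chr6:83454807-83455330) had its summit in the 5′UTR of exon 2, an exon that only 1 of the 2 full coding transcripts of GENCODE vM21 contains. Peak 2 (chr6:83368224-83369347) lay in the coding part of the last exon, in both transcripts, 468 bases before the stop codon. The *Dnmt3l* peak (plus strand gene, chr10:78041947-78063622, peak chr10:78049895-78050172) also lay in a 5′UTR, in an exon that 3 of its 6 coding transcripts share. A further WT peak on the *Tet1* locus (chr10:62822279-62822534, fold enrichment 4.73) lay in an intron and had no overlapping R255K peak. Of all WT peaks off exons 12.7% had one.

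**Figure D1:**
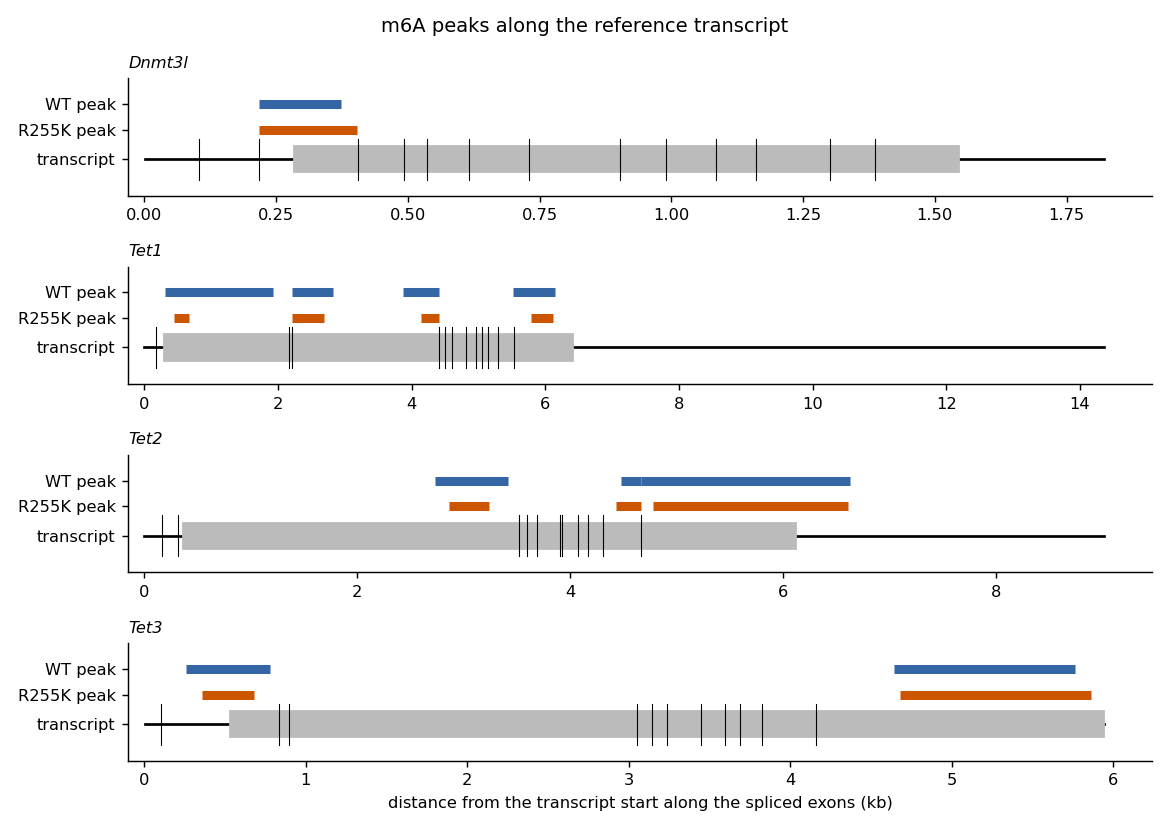
The 10 exonic m6A peaks along the reference transcript of each gene that carries any, in kb of spliced exon from the transcript start. Grey bars are coding sequence, thin upright lines are exon junctions, blue bars are WT peaks and orange bars R255K peaks. All 10 WT peaks are overlapped by an R255K peak, and 7 of the 10 are narrower in R255K cells. The *Tet3* reference transcript ends close to its stop codon.

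All 10 exonic WT peaks on these genes were overlapped by an R255K peak, and the R255K list held 0 peaks on them without a WT counterpart. Over all 13870 exonic WT peaks 52.1% were overlapped, and of the 6807 genes with any such peak 44.7% had all of theirs overlapped, as the 4 genes here did. The share rose with peak confidence, to 63.1% of the exonic WT peaks at or above the lowest −log10 q among these 10 peaks (10.3) and to 78.5% at or above the next lowest (23.5). Peak strength as MACS2 scores it therefore moved with the overlap, and its part in it was not tested. With a minimum of 50% of each WT peak covered, 8 of the 10 counted as overlapped, against 41.1% of all exonic WT peaks. Peak 1 of *Tet1* shrank most, from 1613 bp in WT to 221 bp in R255K cells, which covers 13.7% of it, and peak 4 of *Tet1* was covered to 42.2%.

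The fold enrichment at the summit was higher in R255K than in WT cells for 8 of the 10 peaks. Of the 7231 overlapped exonic WT peaks of all genes, 29.4% were higher. Each value was taken at the summit of its own list, and the paired summits lay 4 to 399 bp apart. They lay furthest apart for peak 2 of *Tet1* (399 bp) and peak 3 of *Tet2* (393 bp). The 3 peaks of *Tet2* went from 4.35, 2.78 and 7.12 in WT cells to 6.26, 3.43 and 9.81 in R255K cells. Peaks 2, 3 and 4 of *Tet1* went from 3.39, 2.97 and 5.10 to 3.93, 3.55 and 5.30, and peak 1 went from 3.85 to 2.48. All *Tet2* peaks thus had higher values in R255K cells, and on *Tet1* the peak nearest the 5′ end alone had a lower one. In the 0 h libraries of the actinomycin D series the R255K levels of *Tet1* and *Tet2* were 0.251 and 0.131 times WT. The part of these lower levels in the peak values was not tested.

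On *Tet3* the 2 peaks parted. Peak 1 in the 5′UTR reached an enrichment of 26.6 in WT cells, above 99.2% of all exonic WT peaks, and 13.3 in R255K cells, a ratio of 0.500. Peak 2 near the stop codon had 15.4 and 17.1, a ratio of 1.11. The *Dnmt3l* peak rose from 3.86 to 8.27, a ratio of 2.14 that exceeded 99.0% of all overlapped exonic peaks, whose median ratio was 0.797. The −log10 q moved the other way: it was lower in R255K cells for 9 of the 10 peaks, all but the one on *Dnmt3l* (23.5 in WT, 40.01 in R255K), and for 83.7% of all overlapped exonic WT peaks. With 1 list per genotype, none of these differences has an error, and the read depth behind the lists is unknown.

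**Figure D2:**
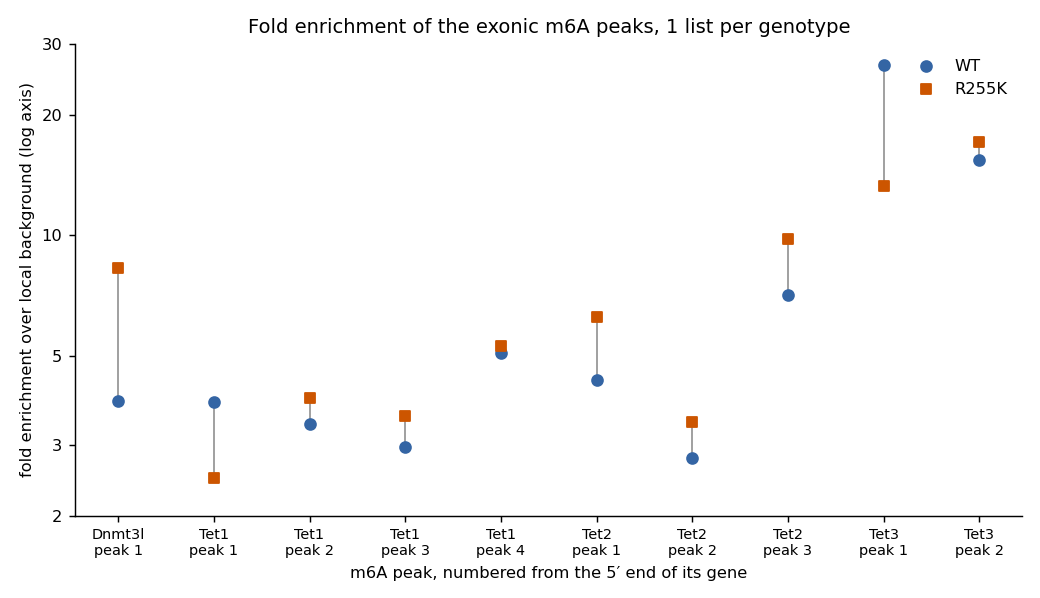
Fold enrichment of each exonic m6A peak over its local background (log axis) in the WT list (blue circles) and the R255K list (orange squares), with peaks numbered from the 5′ end of the gene. Each value is taken at the summit of its own list. The R255K value is higher for 8 of the 10 peaks, and the largest drop is peak 1 of *Tet3*, from 26.6 to 13.3.

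The libraries held between 13812160 and 18813640 counts. The 0 h libraries of the 2 genotypes differed from each other in a trend over genes, and their ratio does not show which library departed. At 0 h the R255K over WT log2 ratio (FPKM with a pseudocount of 1) fell with exon length, from a median of 0.21 for genes under 2 kb to −0.59 for the 214 genes of at least 15 kb, and it was also lower for AT-rich genes (−0.64 under 40% GC). At 4 and 8 h the medians of the longest genes were 0.13 and 0.45. The TET genes have 15065, 16870 and 16695 bp of exon against a median of 3738 bp, and *Tet1* and *Tet2* are 44.0% and 42.7% GC. Length and GC content thus moved with the 0 h values below, and their part in them was not tested beyond the corrections given. The counts of *Mettl14* itself, which do not show the changed base, were 681, 376 and 232 in the WT libraries against 299, 280 and 209 for R255K. They are not scaled to the library totals. For the protein, the paper reports no substantial change of METTL14 in R255K cells by western blot.

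*Tet1* and *Tet2* were much lower in untreated R255K than WT cells, and none of the other 5 genes passed 1.5-fold on the log2(FPKM + 1) scale. *Tet1* stood at 53.1 FPKM in WT and 13.4 in R255K cells at 0 h, a ratio of 0.251 (95% interval 0.242 to 0.261). *Tet2* stood at 13.7 and 1.78 FPKM, a ratio of 0.131 (0.118 to 0.144). Both log2 ratios, −1.91 and −2.40, lay near the bottom of all 11869 genes, with 55 genes below *Tet1* and 8 below *Tet2*. Within the 214 genes of at least 15 kb, of which 50.5% were lower past 1.5-fold at 0 h, 0 lay below *Tet2* and 2 below *Tet1*. With the trend over exon length removed, a correction chosen after seeing the data, the log2 ratios were −1.41 and −1.99, and with the trend over GC content removed they were −1.60 and −2.10.

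*Tet3*, the least abundant, stood at 1.87 FPKM in WT and 0.984 in R255K cells, from 545 and 257 counts, a ratio of 0.525 (0.451 to 0.611) whose log2 with the pseudocount, −0.53, missed the 1.5-fold line. *Dnmt1* stood at 79.7 and 61.2 FPKM (ratio 0.768, 0.745 to 0.792) and *Uhrf1* at 163 and 126 FPKM (0.773, 0.752 to 0.795). *Dnmt3l* was close to even at 102 and 108 FPKM (1.06, 1.02 to 1.103), and *Tdg* stood at 8.24 and 11.2 FPKM (1.36, 1.24 to 1.5003). In all, 2 of the 7 genes were lower past 1.5-fold and 0 higher, where 15.7% of all genes were lower and 17% higher.

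The order of levels also differed. In WT cells at 0 h it ran *Uhrf1*, *Dnmt3l*, *Dnmt1*, *Tet1*, *Tet2*, *Tdg*, *Tet3*, and no 2 neighbours had overlapping counting intervals. In R255K cells *Tet2* fell below *Tdg*, and *Tet1* (12.9 to 13.8 FPKM) lay only just above *Tdg* (10.5 to 11.97). FPKM divides by the summed exons of all isoforms of a gene, so it understates a gene that uses 1 short isoform.

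In WT cells the TET transcripts fell quickly under actinomycin D while the other 4 did not fall relative to the rest of their libraries. *Tet1* went from 53.1 to 22.5 and 6.45 FPKM at 0, 4 and 8 h. *Tet2* went from 13.7 to 4.57 and 1.54 FPKM, and *Tet3* from 1.87 to 0.360 and 0.169 FPKM, the last from 39 counts. After 8 h 12.2%, 11.3% and 9.03% of the starting levels of *Tet1*, *Tet2* and *Tet3* remained, against a median of 64.1% over all genes and of 23.7% over the 214 genes of at least 15 kb. Of these long genes, 46 kept less than *Tet1*, 39 less than *Tet2* and 25 less than *Tet3*.

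The other 4 transcripts gained on the rest of the library. *Dnmt1* went from 79.7 to 93.6 and 86.6 FPKM, *Uhrf1* from 163 to 186 and 178 FPKM, and *Tdg* from 8.24 to 9.81 and 9.13 FPKM. *Dnmt3l* climbed from 102 to 140 and 166 FPKM, 162% of its start. Without a spike-in, levels under the block can be read only against the library's total, and in bulk RNA fewer cells with a transcript and less of it per cell cannot be told apart.

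In R255K cells the TET transcripts did not fall in this way. *Tet1* stood at 13.4, 25.9 and 21.4 FPKM at 0, 4 and 8 h, so its level at 4 h was 194% of that at 0 h (186 to 202), where WT cells had 42.5% (41.1 to 43.8). *Tet2* stood at 1.78, 1.49 and 0.889 FPKM and *Tet3* at 0.984, 0.634 and 0.474 FPKM. After 8 h 160% of the starting level of *Tet1*, 49.8% of that of *Tet2* and 48.2% of that of *Tet3* remained, against a median of 92.0% over all genes and of 86.6% over the long genes. A rise from 0 to 4 h in R255K cells was frequent among long transcripts: 57.5% of the 214 genes of at least 15 kb rose, and 25 of them rose more than *Tet1*. A fall in WT together with a rise in R255K cells over this interval occurred in 14.6% of all genes.

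The other 4 genes stayed closer to their starting levels in R255K cells. *Dnmt1* stood at 61.2, 59.8 and 66.0 FPKM, *Uhrf1* at 126, 111 and 128 FPKM, *Dnmt3l* at 108, 113 and 116 FPKM and *Tdg* at 11.2, 10.4 and 11.3 FPKM. Between 101% and 108% of their 0 h levels remained at 8 h, so the climb of *Dnmt3l* seen in WT cells was smaller in R255K cells.

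**Figure D3:**
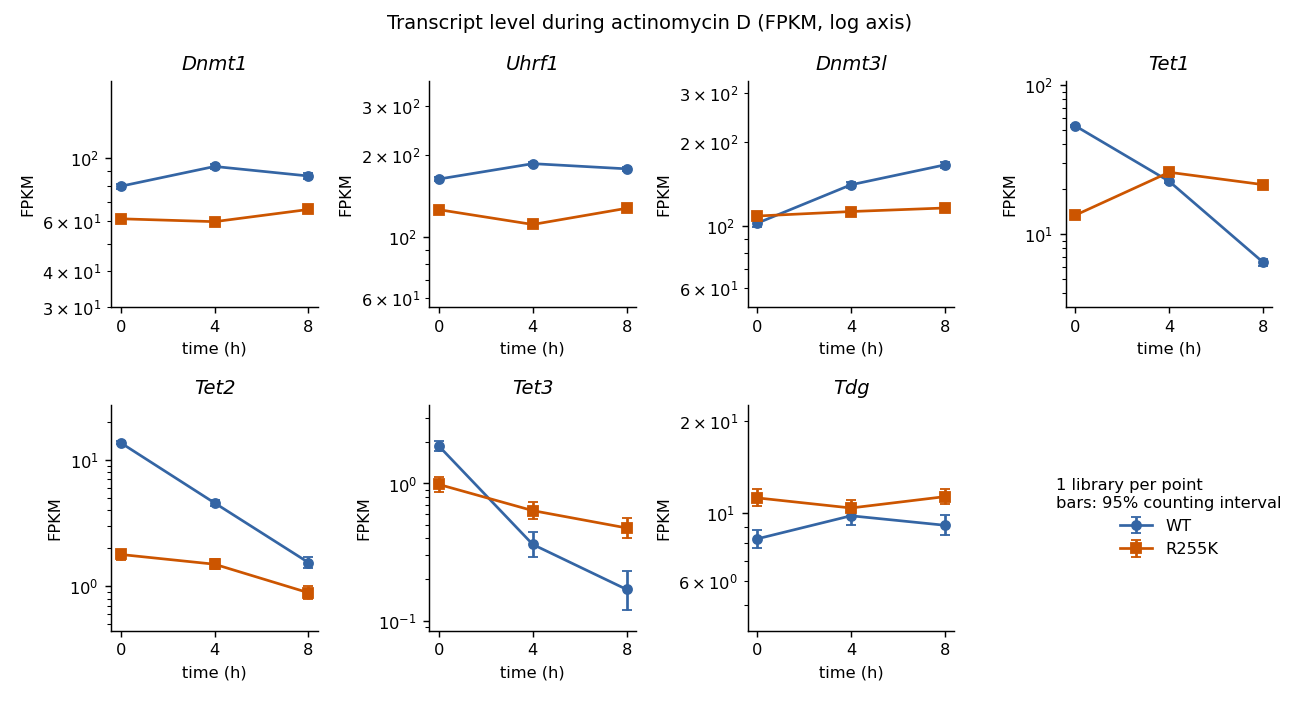
Level of each gene in FPKM (log axis) at 0, 4 and 8 h of actinomycin D, in WT (blue circles) and R255K cells (orange squares), with 1 library per point and bars for the 95% counting interval. The 3 TET genes drop steeply in WT cells, where at most 12.2% of their level remained at 8 h, and *Tet1* rises from 13.4 to 25.9 FPKM between 0 and 4 h in R255K cells.

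Half-lives were estimated from the mean of the decay rates to 4 h and to 8 h. In WT cells they were 2.90 h for *Tet1* (2.83 to 2.97), 2.53 h for *Tet2* (2.43 to 2.64) and 1.94 h for *Tet3* (1.77 to 2.163), against a median of 3.48 h over the 5504 genes that decayed in both genotypes. In R255K cells *Tet2* had a half-life of 10.5 h (7.93 to 15.7) and *Tet3* one of 6.90 h (5.29 to 9.91). The ratios, 4.16 for *Tet2* (2.99 to 5.79) and 3.55 for *Tet3* (2.58 to 4.89), were both over 1.5, as they were for 68.8% of the 5504 genes, whose median ratio was 1.98. A ratio under 1/1.5 was found for 5.78% of these genes. Among the 103 long genes with a ratio, 91.3% were over 1.5 and the median was 3.05, with 38 above *Tet2* and 45 above *Tet3*. Relative to *Gapdh* instead of the library total, both directions turned, and so did the background, with 2.29% of genes over 1.5. Of the 5504 genes, 875 had a larger ratio than *Tet2* and 1119 a larger one than *Tet3*. All these rates start from the 0 h libraries, whose ratio moved with exon length and GC content. The WT minus R255K rate of *Tet2* was 0.208 per h. It was 0.137 after removal of the length trend and 0.150 after that of the GC trend. For *Tet3* the values were 0.256, 0.186 and 0.270 per h. From 4 to 8 h alone they were 0.142 for *Tet2* and 0.116 for *Tet3*.

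*Tet1* gave no ratio, because its rate in R255K cells was below 0. The decay rate was 0.239 per h in WT cells (0.233 to 0.245) and −0.112 per h in R255K cells (−0.120 to −0.105), a difference of 0.351 per h that 167 of 11847 genes and 16 of the 214 long genes exceeded. The difference was 0.286 per h after removal of the trend over exon length and 0.308 after that over GC content. With genes of this kind counted as slower, all 3 TET genes were slower in R255K cells, against 76% of the 7146 genes that decayed in WT cells. *Dnmt1*, *Dnmt3l*, *Uhrf1* and *Tdg* had rates below 0 in WT cells and so had no half-life there. The WT minus R255K difference lay between −0.0612 per h for *Dnmt3l* and −0.0234 per h for *Dnmt1*, the opposite sign to the TET genes, though scaling to 79 ribosomal protein genes, or use of the 4 to 8 h interval alone, turned that sign for *Dnmt1*, *Uhrf1* and *Tdg*.

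The interval from 4 to 8 h does not use the 0 h libraries. Of the *Tet1* level at 4 h, 28.6% remained at 8 h in WT cells (26.9 to 30.4) and 82.6% in R255K cells (79.8 to 85.5). For *Tet2* the values were 33.7% (29.9 to 38.0) and 59.4% (51.1 to 69.0), and for *Tet3* 47.0% (31.4 to 69.2) and 74.8% (60.0 to 93.0). The share left was thus 2.89 times as high in R255K cells for *Tet1* (2.69 to 3.09), 1.76 times for *Tet2* (1.46 to 2.13) and 1.59 times for *Tet3* (1.03 to 2.45). All 3 passed 1.5-fold, which 26.9% of all genes did, 0 of the 7 genes were under 1/1.5, as 3.86% of all genes were, and the interval of *Tet3* reaches almost to 1. With TMM factors the values were 2.498, 1.52 and 1.38, where 18.3% of genes passed, so *Tet3* no longer did, and with ribosomal protein gene scaling they were 3.23, 1.97 and 1.78, where 36.6% passed. Among the 214 long genes 55.6% passed 1.5-fold and the median was 1.59, with 82 of these genes above *Tet2* and 104 above *Tet3*. The value of *Tet1* lay above 97.9% of all genes, and 8 of the 214 long genes exceeded it.

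Over the same 4 h the other genes stayed near or above their 4 h level in both genotypes. The share left was 92.6% in WT and 110% in R255K cells for *Dnmt1*, 95.7% and 115% for *Uhrf1*, 93.1% and 109% for *Tdg*, and 118% and 103% for *Dnmt3l*. Of these 4 genes, *Dnmt3l* alone had a lower share in R255K than in WT cells, with a ratio of 0.873 (0.832 to 0.917). Over all genes the median share left was 76.6% in WT and 92.6% in R255K cells. Over the long genes it was 47.6% and 79.8%. Relative to the library total, *Tet1*, *Uhrf1* and *Dnmt1* moved in opposite directions in WT and R255K cells over at least 1 of the 3 intervals. Both genotypes had counting intervals that exclude no change, and 13.6% of all genes met the same conditions.

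**Figure D4:**
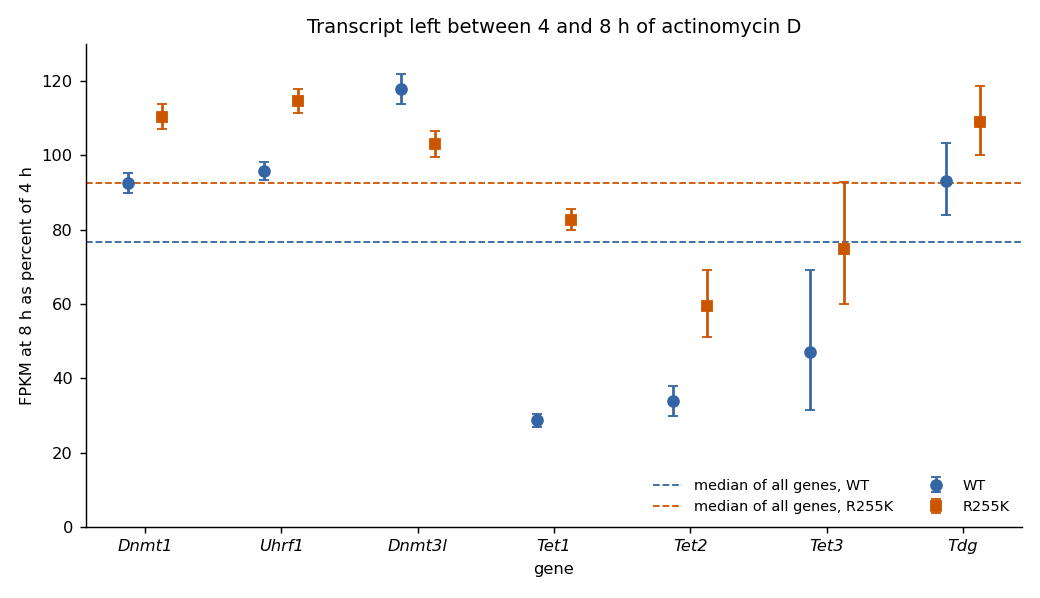
FPKM at 8 h as a percent of FPKM at 4 h in WT (blue circles) and R255K cells (orange squares), with 95% counting intervals and dashed lines at the medians of all genes, 76.6% and 92.6%. The TET genes lie between 28.6% and 47.0% in WT cells and between 59.4% and 82.6% in R255K cells, and the other 4 genes lie at 92.6% or above in both.

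At 8 h the balance between the genotypes had changed for the TET genes. *Tet1* was 3.32 times as high in R255K as in WT cells (3.13 to 3.52) after being 0.251 times as high at 0 h and 1.15 times at 4 h. *Tet3* went from 0.525 times to 1.76 times at 4 h and 2.80 times at 8 h (1.96 to 4.10), and *Tet2* from 0.131 to 0.327 and 0.577 times (0.492 to 0.676). *Tet2* was therefore lower in R255K cells at all 3 times. With the pseudocount, 1 of the 7 genes was higher past 1.5-fold at 8 h (*Tet1*, log2 ratio 1.59) and 0 lower, while 36.6% of all genes were higher and 8.2% lower. With edgeR's TMM factors those shares were 25.03% and 22.02%, and *Dnmt1*, *Uhrf1*, *Dnmt3l* and *Tet2* counted as lower. With ribosomal protein gene scaling the shares were 47.96% and 3.07%, and *Tdg* joined *Tet1* as higher.

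At 4 h *Dnmt1* and *Uhrf1* were at their lowest relative to WT. *Dnmt1* stood at 93.6 FPKM in WT and 59.8 in R255K cells (ratio 0.639, 0.621 to 0.658) and *Uhrf1* at 186 and 111 FPKM (0.600, 0.584 to 0.617). With *Tet2* these made 3 of 7 genes lower past 1.5-fold at 4 h, against 7.29% of all genes, and 0 higher, against 25.6%. With ribosomal protein gene scaling the log2 ratios of *Dnmt1* and *Uhrf1* were −0.43 and −0.53, short of 1.5-fold, where 4.39% of genes were lower. With TMM factors they were −0.86 and −0.95, where 13.8% of genes were lower. *Dnmt1* and *Uhrf1* moved in parallel over the 6 libraries, with a Pearson r of 0.99 between them on the log2(FPKM + 1) scale. This describes 6 points from 2 genotypes and carries no test. Such values were frequent: 212 genes reached an r of 0.95 with *Dnmt1* and 142 with *Uhrf1*.

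**Figure D5:**
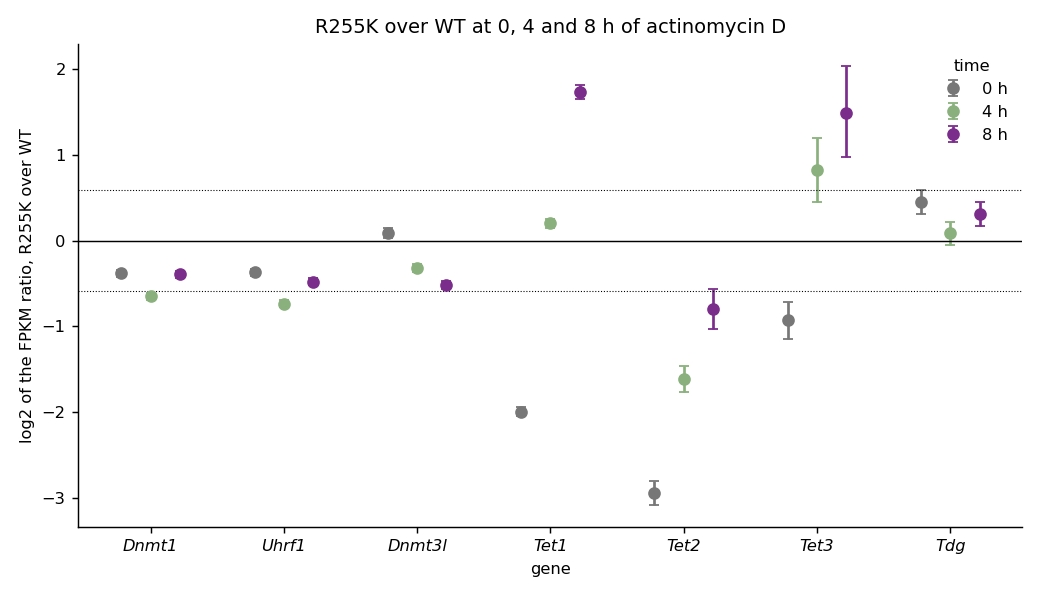
Log2 of the plain FPKM ratio, R255K over WT, for each gene at 0 h (grey), 4 h (green) and 8 h (purple), with 95% counting intervals and dotted lines at 1.5-fold. *Tet1* moves from a ratio of 0.251 to 3.32 and *Tet3* from 0.525 to 2.80, *Tet2* stays below 1, and *Dnmt1* and *Uhrf1* stay between 0.600 and 0.773.

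The genes whose levels ran most like each member over the 6 libraries were picked by Pearson r on the log2(FPKM + 1) scale among 11868 other genes. For *Tet1* they were *Mlh3*, *Tmem245* and *Mphosph9* (r of 0.99 each), and 94 genes reached 0.95. For *Tet2* they were *Zfp704*, *Tbc1d24* and *Zfp101* (r of 1.00 each when rounded), with 128 genes at 0.95 or more. For *Tet3* they were *Zfhx2*, *Rmi1* and *Mgat4a*, with 551 such genes. For *Dnmt1* they were *Bbs2*, *Mettl27* and *Ltbp4* (212 such genes), for *Uhrf1* *Mocs1*, *Gm30717* and *Cpne5* (142), for *Dnmt3l* *Rps15a*, *Cuedc2* and *Rps14* (385) and for *Tdg* *Srsf9*, *B230206L02Rik* and *Anapc2* (66). Between the TET genes themselves r was 0.68 for *Tet1* with *Tet2*, 0.74 for *Tet1* with *Tet3* and 0.69 for *Tet2* with *Tet3*. All these values rest on the same 6 libraries.

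Of 42 other genes of the pathway, in 6 lists, 39 reached 1 FPKM, and at 0 h 8 of these were lower and 9 higher past 1.5-fold, with a median log2 ratio of −0.07 against 0.05 over all genes, of which 15.7% were lower and 17% higher. Of the 21 with a half-life in both genotypes, 12 had a ratio over 1.5 and 3 under 1/1.5, or 57.1% over 1.5, where 68.8% of all genes with a ratio were over and 5.78% under. Among the enzymes that set new methylation, *Dnmt3b* was higher (log2 ratio 1.22) and *Dnmt3a* near even (−0.07). Among the partners of DNMT1 and UHRF1, the DNA helicase gene *Hells* (−1.23) and the deubiquitinase gene *Usp7* (−0.79) were lower. *Dppa3*, which encodes an inhibitor of UHRF1, was higher (3.39), from 22, 20 and 32 counts in the WT libraries against 339, 376 and 413 for R255K.

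Of the 6 genes at this level in the list of readers of methylated DNA and their relatives, *Zbtb33* (−0.85) and *Zbtb38* (−0.71) were lower. *Mbd3* (0.69), one of the relatives, was higher. Of 11 base excision repair genes 0 were lower and 3 higher, led by the glycosylase gene *Nthl1* (0.95), with *Mbd4* lowest at −0.36. Among 8 partners of the TET enzymes and suppliers of their cofactor, *Idh1* (−0.99) and *Idh2* (−0.66), whose enzymes make 2-oxoglutarate, were lower, and *Gadd45g* (1.26) and *Gadd45b* (0.66) were higher. Among the genes of methyl donor supply, *Mtr* (−0.69), the methionine synthase gene, was lower and *Ahcy* (0.72), whose enzyme clears S-adenosylhomocysteine, was higher.

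All 8 stem cell markers listed, *Pou5f1* among them, were expressed, with a summed level of 2484 to 2804 FPKM in WT and 1974 to 2366 FPKM in R255K cells. At 0 h 2 of them were lower past 1.5-fold in R255K cells, *Tfcp2l1* (59.7 FPKM in WT, 16.8 in R255K, log2 ratio −1.77) and *Esrrb* (173 and 80.4 FPKM, −1.10), and *Utf1* was higher (379 and 581 FPKM, 0.61). The 8 fibroblast markers summed to 2.45 to 3.21 FPKM in WT and 7.89 to 8.98 FPKM in R255K cells, with *Lum* at 0 counts in all libraries. The 6 primitive endoderm markers summed to 2.40 to 10.8 FPKM in WT and 2.46 to 6.84 FPKM in R255K cells. The 4 markers of 2-cell-like cells summed to at most 0.147 FPKM in WT and to 3.63 to 5.59 FPKM in R255K cells. These differences lie beside the genotype, and their part in the results was not tested.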

How the data were processed

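The 6 actinomycin D libraries and the 2 peak lists from MeRIP-seq were used. Before deposit, rRNA reads were discarded with Bowtie2 2.2.6, HISAT2 placed the others on mm10, and Picard 2.16.0 and SAMtools 0.1.09 left unique reads, per the labels and the methods. The counts per gene were deposited without normalization, with exon lengths, and the counting tool, its use of strand and the annotation are not given in the sources used here. Peaks come from MACS2 as the authors ran it. Their deposited fold enrichment is a ratio over the local background, and the deposited −log10 q and the score column, which holds 10 times that value and was not used, are MACS2's own. How libraries were pooled for peak calling is not given in the sources used here.

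FPKM was computed from counts, exon lengths and summed counts. A gene was called past 1.5-fold on log2(FPKM + 1), which understates changes of low genes. The decay rate averaged the log ratio of FPKM at 0 h to that at 4 h, divided by 4, with the same for 8 h. Counts under 3 at 4 and 8 h were set to 3. The rate was also run on simulated data with known scaling and decay in every gene. That run does not cover unknown scaling or rates below 0, both of which occur here. Ratio intervals are exact conditional binomial ones and those of rates come from the Poisson variance of the counts, all at 95%. The tools were statsmodels 0.14.6 (lowess, span 0.3), scipy 1.17.1, pandas 2.3.3, numpy 2.4.6 and matplotlib 3.10.9 under Python 3.11.15, with edgeR 4.0.16 in R 4.3.3 for TMM factors alone.

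Peaks were placed on the exons of the count tables. Regions and exon numbers follow the GENCODE vM21 basic transcript with the longest coding sequence. The summed exon length per gene in GENCODE matched the tables for 6 of the 7 genes (*Tet1* has 15457 bp in GENCODE and 15065 in the tables). Sequences were read from GRCm38.p6, the same build as mm10, and 0 peaks passed a chromosome end. GC content was available for 52422 of 52459 genes.

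The members, the lists and the analyses were chosen with earlier results of these data known. The text names the 7 members, the 3 genes most like each, and the pathway genes at the ends of their lists or past 1.5-fold, of which 1 is not reported here. Exons of *Dnmt3l* overlap *Aire* (53 to 92 counts), those of *Tdg* overlap *Glt8d2* (2 to 8) and those of *Tet2* overlap *Gm42567* (0 to 2), all on the opposite strand.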

Additional observations from a re-analysis of the deposited data

Results flagged for a closer look

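In 3 genes a transcript moved in opposite directions in the 2 genotypes over the same interval, relative to the library total. The counting intervals exclude no change in both genotypes. Over all genes this held for 8.63% from 0 to 4 h, 6.35% from 0 to 8 h and 2.91% from 4 to 8 h. The difference was not tested, since there was 1 library per genotype and time. *Tet1* at 4 h was 42.5% of its 0 h level in WT and 194% in R255K cells, and at 8 h it was 12.2% and 160%. *Uhrf1* at 4 h was 114% of its 0 h level in WT and 88.3% in R255K cells, and from 4 to 8 h it went to 95.7% in WT and 115% in R255K cells. *Dnmt1* went to 92.6% in WT and 110% in R255K cells from 4 to 8 h. For that interval the R255K over WT ratio of the share left was 1.19 for *Dnmt1* and 1.20 for *Uhrf1*. With TMM factors it was 1.03 and 1.04. Ratios so near 1 mean that both genotypes changed almost alike, so the opposite directions of these 2 genes from 4 to 8 h depend on the scaling. The 2 contrasts of *Tet1* share the 0 h libraries. From 4 to 8 h alone *Tet1* fell in both genotypes, to 28.6% and 82.6%.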

How the results depend on the processing

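At 0 h, 2 or 3 genes were lower past 1.5-fold and 0 higher under every alternative run. The alternatives were TMM, ribosomal protein gene scaling, correction for GC content or exon length, a pseudocount of 0.1 and no filter. The lower genes were *Tet1* and *Tet2*, joined by *Tet3* with ribosomal protein gene scaling and with a pseudocount of 0.1. Of all genes, between 8.42% (no filter) and 20.8% (ribosomal protein gene scaling) were lower. Between 9.74% (no filter) and 20.4% (pseudocount of 0.1) were higher. At 8 h, TMM gave 4 genes lower (*Dnmt1*, *Uhrf1*, *Dnmt3l* and *Tet2*), ribosomal protein gene scaling gave 2 higher (*Tet1* and *Tdg*), and a pseudocount of 0.1 gave 1 lower (*Tet2*) and 2 higher (*Tet1* and *Tet3*). Of all genes at 8 h, 22.02% were lower with TMM and 47.96% were higher with ribosomal protein gene scaling. With the pseudocount of 0.1, 10.2% were lower and 46.6% higher. TMM and ribosomal protein gene scaling moved the median log2 ratio of all genes at 8 h from 0.33 to 0.05 and 0.55. For half-lives, 2 genes had a ratio over 1.5 (*Tet2* and *Tet3*), but ribosomal protein gene scaling gave 5 over 1.5 and 1 under 1/1.5. With that scaling 81.4% of 7482 genes were over 1.5 and 3.54% under 1/1.5. Scaling to *Gapdh* gave 1 over 1.5 (*Tet1*) and 0 under 1/1.5, where 2.29% of genes were over and 62.6% under. With *Gapdh* scaling the WT minus R255K rate was −0.0651 per h for *Tet2* and −0.0168 for *Tet3*. The counts of *Gapdh* were 995, 242 and 2357 for WT against 331, 787 and 1875 for R255K. Restricted to the stronger WT peaks, from the median fold enrichment upwards, 3 of 3 peaks were overlapped, against 69.6% of exonic WT peaks. The cause of these shifts was not tested, apart from the last, which has fewer peaks. Of the other counts of genes or peaks, 41 stayed within 1.5 times their value. Of 133 values of single genes, 52 moved by less than their counting error. The sign changed in 11, which are the 2 given for *Gapdh* scaling and 9 of values that had not passed 1.5-fold (*Dnmt1*, *Dnmt3l*, *Tdg* and *Uhrf1*).

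No paired analysis was possible because the replicate numbers belong to MeRIP-seq libraries that were pooled into 1 list per genotype. Leaving out a library was not run, since each genotype and time has 1.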

Other observations

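A lower level than WT at 0 h followed by a higher level at 4 h than at 0 h in R255K cells, as in *Tet1*, was also found in *Hells*, the helicase gene of the maintenance list, which was picked here after its values were seen. The counts of *Hells* at 0, 4 and 8 h were 6108, 6148 and 3210 for WT against 2269, 7139 and 6490 for R255K. Its FPKM at 8 h was 66.3% of that at 0 h in WT and 238% in R255K cells. *Zbtb33*, a reader of methylated DNA, was picked in the same way. It had 269, 79 and 7 counts in the WT libraries against 98, 204 and 129 for R255K. Its share left at 8 h was 3.28% in WT and 109% in R255K cells. Other listed genes lower past 1.5-fold at 0 h also rose by 4 h in R255K cells. They include *Idh1* (23.4 to 38.0 FPKM), *Mtr* (8.38 to 11.4), *Idh2* (30.8 to 32.8) and *Usp7* (48.1 to 50.5). The pattern did not hold in all such genes, since *Zbtb38* fell from 1.17 to 0.843 FPKM. The share of all genes with this pattern was not computed. The lower level and the rise use the same R255K 0 h library, so a low value there favours a rise in advance. No conclusion about these genes is drawn from the pattern.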
